A study of Mus musculus with 4 samples.

Results

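The genes described here are the sterol regulatory element-binding proteins (SREBPs) and the proteins that hold, carry and cut them: Srebf1, Srebf2, Scap, Insig1, Insig2, Mbtps1 and Mbtps2. Their members on the array are all probes other than controls whose gene name in the scanner files is one of these 7, which gave 12 probes of 55681. The cells were primary hepatocytes, the liver’s metabolic cells, from mice whose strain the labels give as bl6 and grown with 10% serum. Overnight, every culture then received 0.5% serum, 5 µM simvastatin, which blocks the enzyme that makes mevalonate, and 100 µM mevalonic acid, which lies just after that block. To this mixture either DMSO, the solvent, or GW3965 at 1 µM, a drug that activates the liver X receptors (LXR), was added, with 2 arrays a group, called replicates a and b. The statin and mevalonic acid were therefore present in the DMSO cells too, and no array of cells without them was used here. The labels do not say whether replicates a and b came from separate mice or cultures, so that p-values measure only the spread between these samples, which may be technical.

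SREBPs are made as membrane proteins of the endoplasmic reticulum. SCAP escorts them to the Golgi apparatus when sterols are low, where the site-1 protease (Mbtps1) and afterwards the site-2 protease (Mbtps2) release the part that enters the nucleus, and the INSIG proteins hold SCAP back when sterols are high. In liver, SREBP-1c, a product of Srebf1, is known for driving fatty acid synthesis, SREBP-2, from Srebf2, for driving cholesterol synthesis, and Srebf1 is a known target of LXR. The arrays measured RNA, so cleavage and nuclear entry of the proteins were not measured.

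The probes are 60 bases long, and the scanner files place them on mouse build mm9. The first 30 bases of 6 are printed 5′ to 3′, since the comparisons of the SREBPs with each other and of the INSIGs with each other rest on them. Whether a probe lies in coding sequence or in an untranslated region was not analysed here.
Srebf1 A_55_P2002557, chr11:60012664-60012723, minus strand: ggtcggcatccacaggccgcacacttccaa
Srebf2 A_51_P377508, chr15:82034765-82034824, plus strand: aactaggtctttgcaccagagagcattttg
Srebf2 A_55_P2000487, chr15:82030068-82030127, plus strand: atccagctgttcacctgtgacctgctactg
Insig1 A_51_P290207, chr5:28404246-28404305, plus strand: acagcatagaacacaacacgtgggacctaa
Insig2 A_51_P439452, chr1:123201085-123201144, minus strand: tatgtatacacaagcctaatggtagtagtg
Insig2 A_55_P1957624, chr1:123202133-123202192, minus strand: caatgtgccaaacgtgttactgacacagag
The 2 Srebf2 probes start 4697 bases apart in the genome and the 2 Insig2 probes 1048 bases apart, so each pair samples different stretches of its gene.

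All 4 arrays were of 1 design, and whether they shared a slide was not analysed here. On them, 62.5% to 69.1% of probes were well above background, the scanner software's test against the local background. All 12 member probes passed this test on all 4 arrays. Levels are log2 signals minus each array's 75th percentile, so that 0 is the signal below which 75% of an array's probes lie, and differences are GW3965 minus DMSO with the standard error (SE) from limma. Of 35479 tested probes, 0 (0%) passed an adjusted p under 0.05, the smallest adjusted p being 1.00. At an unadjusted p under 0.05, 286 probes (0.806%) were higher and 79 (0.223%) lower with GW3965, and both treated arrays lay above both DMSO arrays for 3577 probes (10.1%) and below both for 2320 (6.54%). The probes at an unadjusted p under 0.05 were fewer than the share of 0.05 that evenly spread p-values would give. With 2 arrays against 2, an exact two-sided permutation test of 1 probe cannot give a p below 0.333. For reference, 2 cholesterol exporters known as LXR targets were higher on the treated arrays: Abca1 was higher by 2.58 ± 0.39 (SE, limma, n = 2 a group) and Abcg1 by 1.98 ± 0.29, both with an adjusted p of 1.00.

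Among the 12 probes, Srebf1 stood highest with GW3965, Insig1 came next, and the other 10 differed by at most 0.38 in either direction. The means were higher for 7 probes and lower for 5, and the median difference was 0.04, beside 0.001 over all tested probes, of which 50.3% had a higher mean. Both treated arrays lay above both DMSO arrays for 2 of the 12, Srebf1 and Insig1, beside the 10.1% over all probes, and below both for 1, Scap, beside 6.54%. An unadjusted p under 0.05 was reached by 1, Srebf1, and an adjusted p under 0.05 or under 0.1 by 0.

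**Figure D1:**
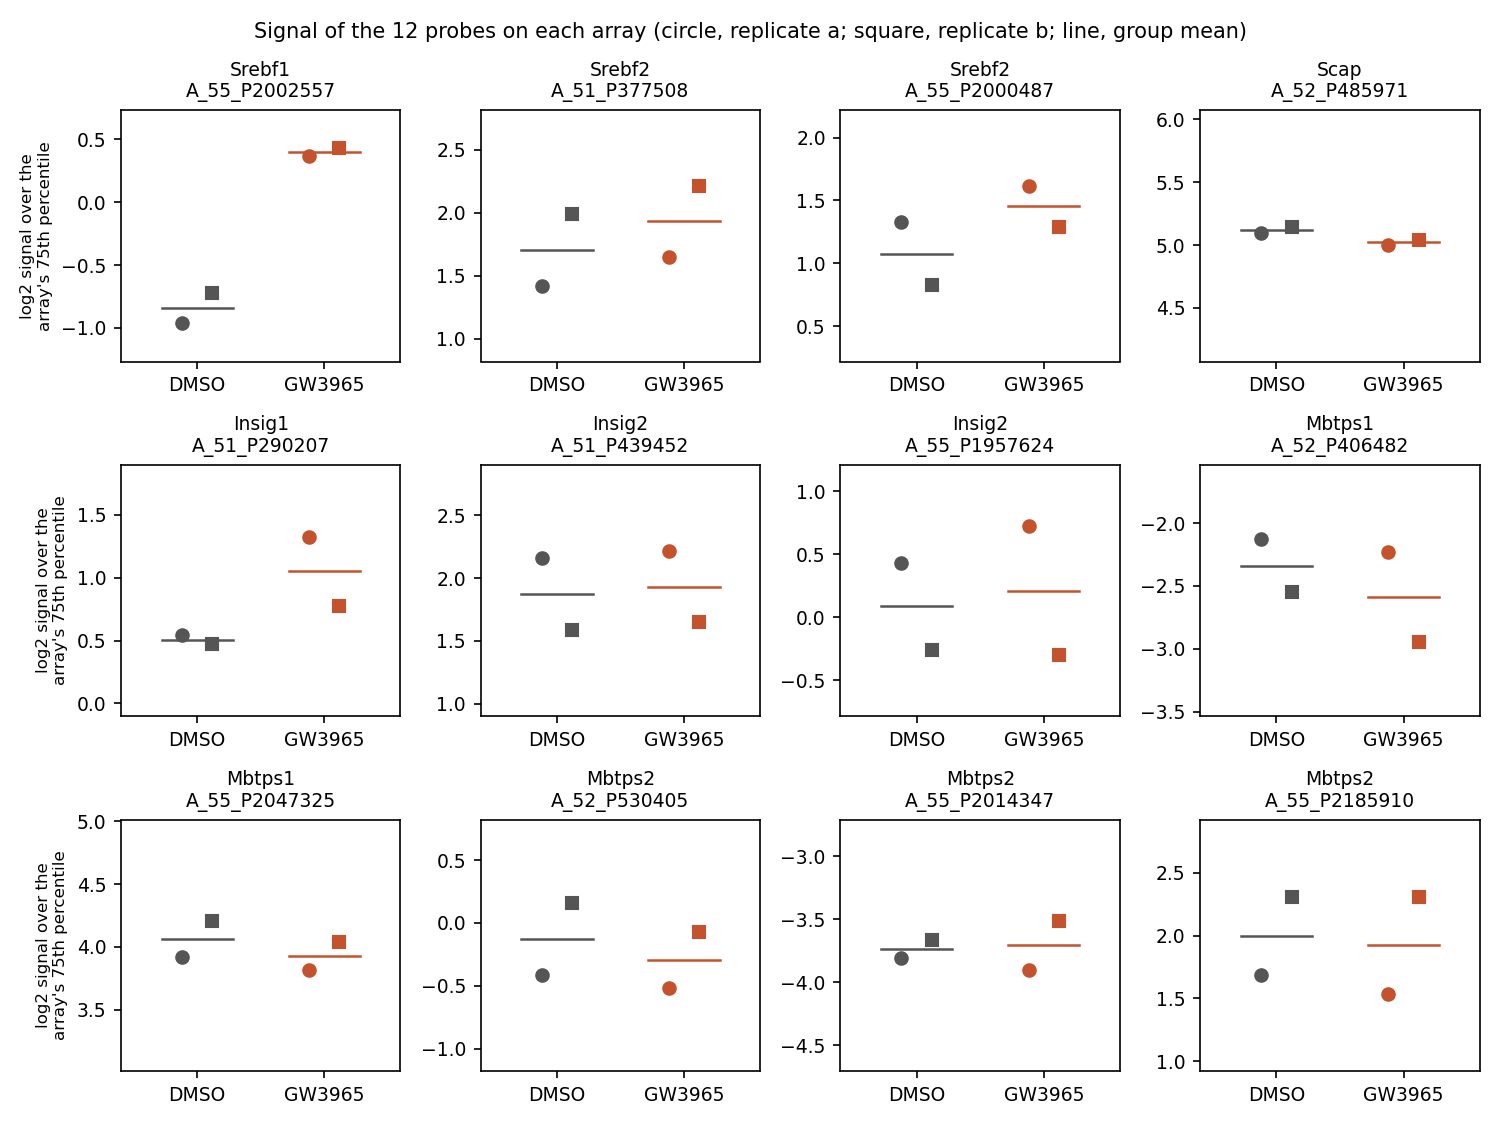
Log2 signal over the array's 75th percentile for each of the 12 probes, with DMSO arrays in grey and GW3965 arrays in orange, circles for replicate a, squares for replicate b and lines for group means; each panel has its own axis of equal span. The groups separate for Srebf1, with treated arrays at 0.37 and 0.43 against -0.96 and -0.72, while for most other probes the replicates lie further apart than the group means.

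Srebf1 was the member with the widest separation. Its processed signals before scaling were 279 and 366 on DMSO replicates a and b and 657 and 908 on GW3965 replicates a and b. After scaling, its levels were -0.96 and -0.72 with DMSO and 0.37 and 0.43 with GW3965, that is, means of -0.84 ± 0.17 (SD, n = 2) and 0.40 ± 0.045 (SD, n = 2). Both treated arrays were high and both DMSO arrays low, with no overlap and a gap far wider than the distance between replicates. The difference of 1.24 ± 0.20 (SE, limma; 95% interval 0.72 to 1.77) corresponds to a 2.37-fold higher signal (1.64 to 3.40), with an unadjusted p of 0.00184 and an adjusted p of 1.00. The ratio was 2.51-fold within replicate a and 2.23-fold within replicate b. Of the 35479 probes, 0.302% had a difference at least as high as Srebf1, which was number 19 by p. SREBP-1a and SREBP-1c differ in their first exon, and whether this single probe separates them was not tested.

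The RefSeq table of mouse promoters (build GRCm38.p6) listed 12 start sites for the 7 genes, 3 of them for Srebf1. The 250 bases before each start were searched on both strands for the sterol regulatory element TCACCCCAC and its looser form TCACNCCAC, the E-box CACGTG, the CCAAT box to which NF-Y binds, and an LXR repeat, that is, GGTCA or GGTTA followed 5 bases later on the same strand by GGTCA or GGTTA. The letters of the repeat were chosen with known LXR elements in mind, that of the Srebf1 promoter included, so its match there is no independent finding. A shorter core of the sterol element, TCACCC, was added after the member sequences had been seen and is contained in TCACCCCAC. The windows of Srebf1 (the start with a repeat), Srebf2 and Insig1 are printed for the 3 members with the highest differences, with matches in capitals.
Srebf1, the last of its starts, chr11:60210472-60210721, minus strand: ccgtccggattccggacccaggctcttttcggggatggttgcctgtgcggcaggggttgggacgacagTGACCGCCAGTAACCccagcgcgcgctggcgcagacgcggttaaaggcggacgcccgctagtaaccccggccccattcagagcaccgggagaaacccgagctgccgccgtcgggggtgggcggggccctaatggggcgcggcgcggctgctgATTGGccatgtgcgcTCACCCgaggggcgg
Srebf2, chr15:82147019-82147268, plus strand: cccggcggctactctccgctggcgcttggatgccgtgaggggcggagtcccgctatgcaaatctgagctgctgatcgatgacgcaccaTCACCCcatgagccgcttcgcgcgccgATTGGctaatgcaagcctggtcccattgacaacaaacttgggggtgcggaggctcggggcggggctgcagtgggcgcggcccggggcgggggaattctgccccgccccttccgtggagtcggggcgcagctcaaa
Insig1, chr5:28071162-28071411, plus strand: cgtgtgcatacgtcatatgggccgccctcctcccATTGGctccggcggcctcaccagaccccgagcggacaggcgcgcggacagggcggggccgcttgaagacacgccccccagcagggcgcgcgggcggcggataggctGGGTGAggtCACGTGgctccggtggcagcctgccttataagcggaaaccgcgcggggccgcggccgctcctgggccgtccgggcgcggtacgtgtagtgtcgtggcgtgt
In the Srebf1 window the repeat begins 182 bases before the start, a CCAAT box 30 bases and TCACCC 15 bases before it. The Srebf2 window holds TCACCC at 162 and a CCAAT box at 135 bases, and the Insig1 window a CCAAT box at 216, TCACCC at 110 and an E-box at 101 bases. The repeat was found in 1 of the 12 member windows and in 63 of 32851 windows of all genes (0.192%). CCAAT was found in 5 of 12 beside 33.8%, CACGTG in 2 of 12 beside 6.02%, and TCACCC in 5 of 12 beside 13.8%. TCACCCCAC and TCACNCCAC, held by 0.496% and 1.05% of all windows, were in 0 of 12, which says only that these letters are not in these 250 bases. Those of Mbtps1 and Mbtps2 held none of the motifs. The other CCAAT matches were in the first Srebf1 window and, 3 times, in the first Insig2 window, the other E-box in the second Scap window, and the other TCACCC matches in the second and the third Insig2 window.

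Srebf2, which encodes SREBP-2, was measured by 2 probes that both had a somewhat higher mean with GW3965. Probe A_51_P377508 read 1.42 and 1.99 with DMSO and 1.65 and 2.21 with GW3965 (replicates a and b), a difference of 0.23 ± 0.32 (SE, limma, unadjusted p = 0.508). Probe A_55_P2000487 read 1.33 and 0.82 with DMSO and 1.61 and 1.29 with GW3965, a difference of 0.38 ± 0.27 (unadjusted p = 0.219). In each probe the groups overlap, but the order of the replicates is opposite: replicate b lies above a in both groups on the first probe and below a in both groups on the second, which sits 4697 bases further towards the 5′ end. Within a replicate letter the treated array was the higher one on both probes. Leaving out 1 array moved A_51_P377508 between -0.057 and 0.51 and A_55_P2000487 between 0.13 and 0.63. Without DMSO replicate a, or without GW3965 replicate b, A_51_P377508 was below 0.

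The Srebf1 difference exceeded that of Srebf2 (probe A_51_P377508, the brighter on average) by 1.02 ± 0.27 (SE, limma; 95% interval 0.32 to 1.71), with an unadjusted p of 0.0134 and an adjusted p of 1.00. Array by array, the log2 signal of Srebf1 minus that of Srebf2 was -2.38 and -2.71 with DMSO and -1.28 and -1.78 with GW3965. These values compare the arrays with each other, not the levels of the genes, since probes differ in how brightly they bind. Both treated arrays lie above both DMSO arrays, and with any 1 array left out the excess stayed between 0.76 and 1.27. Its unadjusted p was 0.0651 without GW3965 replicate a and 0.0622 without DMSO replicate b.

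Scap, the escort, was bright and varied little. Its probe A_52_P485971 (chr9:110287280-110287339, plus strand, mm9) read 5.09 and 5.15 with DMSO and 5.00 and 5.04 with GW3965. Both treated arrays were below both DMSO arrays, by a difference of -0.10 ± 0.19 (SE, limma; 95% interval -0.58 to 0.39; unadjusted p = 0.623). Replicates a and b were within 0.055 of each other in both groups, the closest of the 12 probes.

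Insig1, one of the proteins that retain SCAP and itself a known SREBP target, had the second highest difference. It read 0.54 and 0.47 with DMSO and 1.32 and 0.78 with GW3965, from processed signals of 794 and 839 against 1275 and 1154. Both treated arrays were above both DMSO arrays, yet GW3965 replicate a stood well above replicate b. The difference was 0.54 ± 0.26 (SE, limma; 95% interval -0.12 to 1.21), 1.46-fold, with an unadjusted p of 0.090, and 803 of the tested probes (2.26%) were at least as high. It was 0.78 within replicate a and 0.30 within replicate b. Without GW3965 replicate a the difference was 0.27, and without GW3965 replicate b it was 0.82 with an unadjusted p of 0.0416.

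Insig2, the related protein that also holds SCAP, had near-equal means on both of its probes. A_51_P439452 read 2.16 and 1.59 with DMSO and 2.22 and 1.65 with GW3965, a difference of 0.06 ± 0.32 (SE, limma, unadjusted p = 0.866). A_55_P1957624 read 0.43 and -0.26 with DMSO and 0.72 and -0.30 with GW3965, a difference of 0.13 ± 0.44 (unadjusted p = 0.784). On both probes replicate a is high and replicate b low in both groups, and the groups overlap. The 95% intervals reach up to 0.89 and 1.26 and leave room for a difference as large as that of Insig1. Insig1 exceeded Insig2 (A_51_P439452) by 0.49 ± 0.25 in its difference (SE, limma; unadjusted p = 0.108), with a 95% interval of -0.15 to 1.13 that includes 0. Leaving out 1 array moved this excess between 0.23, without DMSO replicate a, and 0.74, without DMSO replicate b. The per-array log2 signal of Insig1 minus that of Insig2 (A_51_P439452) was -1.62 and -1.11 with DMSO and -0.89 and -0.87 with GW3965, without overlap. With A_55_P1957624 in its place, GW3965 replicate a falls below DMSO replicate b, so that the groups overlap.

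Mbtps1, the serine protease that makes the first cut in the Golgi, had slightly lower means with GW3965 on both probes. A_55_P2047325 (chr8:122032056-122032115, minus strand) read 3.92 and 4.20 with DMSO and 3.82 and 4.04 with GW3965, a difference of -0.13 ± 0.22 (SE, limma, unadjusted p = 0.571). A_52_P406482 (chr8:122071553-122071612, minus strand), which lies 39497 bases towards the 5′ end, read -2.13 and -2.55 with DMSO and -2.23 and -2.94 with GW3965, a difference of -0.25 ± 0.32 (unadjusted p = 0.476). The groups overlap on both. As with Srebf2, the probes disagree on the replicates: b is above a in both groups on A_55_P2047325 and below a in both on the probe towards the 5′ end.

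Mbtps2, the membrane metalloprotease that makes the final cut, was within its replicate spread on all 3 probes. A_52_P530405 (chrX:153988656-153988715, minus strand) read -0.41 and 0.16 with DMSO and -0.52 and -0.07 with GW3965, a difference of -0.17 ± 0.30 (SE, limma, unadjusted p = 0.596). A_55_P2185910, which starts 228 bases away (chrX:153988884-153988943), read 1.69 and 2.30 with DMSO and 1.54 and 2.31 with GW3965, a difference of -0.07 ± 0.37 (unadjusted p = 0.848). On these neighbouring probes replicate b was above a in both groups and the groups overlap. The third probe, A_55_P2014347 (chrX:154003909-154003968), carries the gene name Mbtps2 in the files but was designed on a cDNA clone that their description calls weakly similar to the repressor YY1, and RefSeq lists the gene Yy2 within the span of Mbtps2. It read -3.81 and -3.66 with DMSO and -3.90 and -3.51 with GW3965, a difference of 0.03 ± 0.23 (unadjusted p = 0.910), and which of these genes it measured was not tested.

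**Figure D2:**
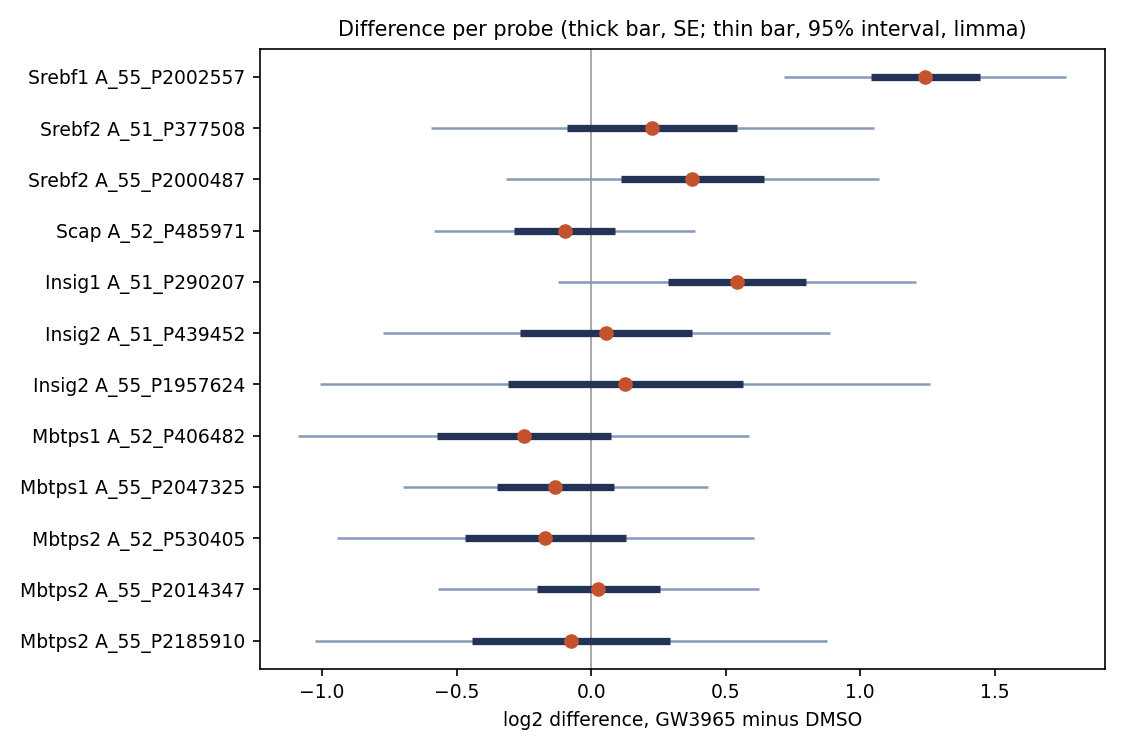
Log2 difference, GW3965 minus DMSO, of each of the 12 probes (points), with the SE from limma as thick bars and the 95% interval as thin bars. The interval of Srebf1, 0.72 to 1.77, is the only one that leaves out 0, before adjustment over all probes.

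The distance between replicates, taken as the mean over both groups, was larger than the treatment difference for 9 of the 12 probes, the exceptions being Srebf1, Insig1 and Scap. Group by group, Insig1's GW3965 replicates were 0.547 apart, beyond its difference of 0.542, and the GW3965 replicates of A_55_P2000487 of Srebf2 were closer together than its difference of 0.38. Replicate b was above a in both groups for 7 probes (Srebf1, A_51_P377508 of Srebf2, Scap, A_55_P2047325 of Mbtps1 and the 3 of Mbtps2) and below a in both groups for the other 5. Within replicate a and within replicate b the difference between treated and DMSO arrays had the same sign for 9 of 12. These counts were taken over the 12 probes only, with no share over all tested probes beside them. Marker genes of liver cell types also differed by replicate letter: the median of b minus a over 10 of 10 hepatocyte markers was -0.91 in DMSO and -0.99 in GW3965, and over 6 of 7 stellate cell and fibroblast markers it was 0.63 and 0.47. Summed linear signal, in units of the array's 75th percentile, overlapped between treatments in both lists, at 1800 to 2481 with DMSO and 1512 to 2585 with GW3965 for hepatocytes and at 44.9 to 77.0 and 42.7 to 81.5 for stellate cells. Dcn, the brightest stellate cell marker and named after its values were seen, was lower in replicate b in both groups, against the list's median. It read 6.10 and 4.93 with DMSO and 6.16 and 4.77 with GW3965 (replicates a and b). Most of the summed stellate cell signal is Dcn, so that sum was lower in b, opposite to the median. The part of cell makeup in the members' replicate distances was not tested, and in bulk RNA fewer cells of a type and less RNA per cell cannot be told apart.

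**Figure D3:**
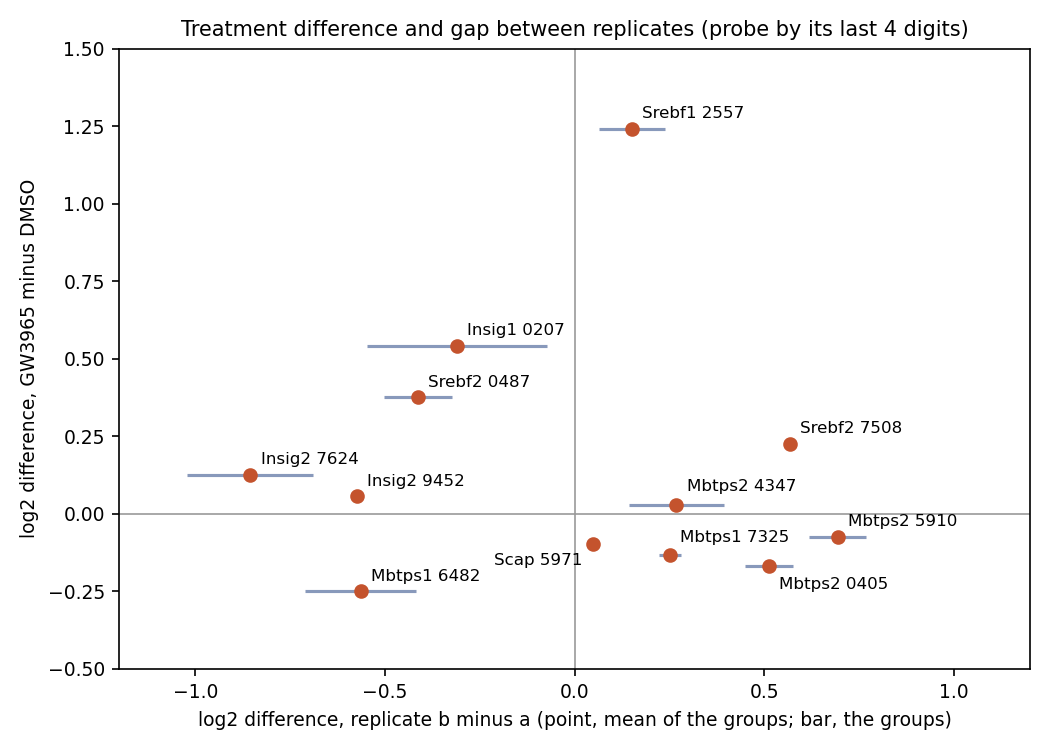
Each point is a probe, with the log2 distance of replicate b from replicate a on the horizontal axis (point, mean of both groups; bar, from one group to the other) and the log2 difference GW3965 minus DMSO on the vertical axis. Srebf1 is high with a small replicate distance, Insig1 lies at 0.54, and the others spread sideways around 0, with the probes of Srebf2 and of Mbtps1 on opposite sides.

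**Figure D4:**
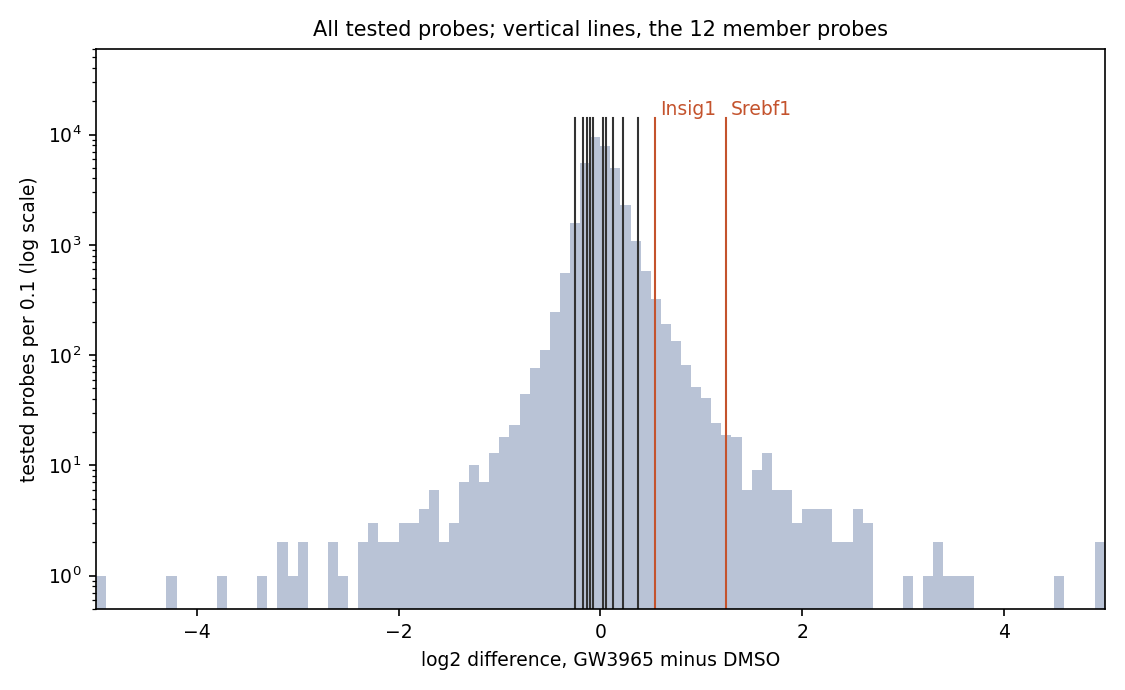
Number of tested probes per 0.1 of log2 difference on a log scale, with the 12 member probes as vertical lines; the outermost bars also hold the probes beyond them. Srebf1 at 1.24 lies in the upper tail and Insig1 at 0.54 on its shoulder. The other 10 lie between -0.25 (A_52_P406482 of Mbtps1, percentile 4.71 of the differences) and 0.38 (A_55_P2000487 of Srebf2, percentile 95.2).

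The genes that SREBP-1 and SREBP-2 are known to drive were described from lists, with 1 probe a gene and 24637 genes tested. Over all of these, 0 (0%) passed the adjusted threshold, and 162 (0.658%) were higher and 43 (0.175%) lower at an unadjusted p under 0.05. Treated arrays lay above DMSO arrays without overlap for 2319 (9.41%) and below for 1613 (6.55%). The median difference was -0.006, and 48.5% of these genes had a higher mean. All 17 fatty acid and triglyceride genes of the SREBP-1 list had a higher mean with GW3965, with a median of 0.45. This median was 0.40 to 0.43 with quantile normalization, centring on the median or normexp, and 0.44 to 0.60 with 1 array left out. Without overlap were 8 of the 17, all higher, and 4 had an unadjusted p under 0.05. Scd1 and Scd2, which put the first double bond into saturated fatty acids, were higher by 0.82 ± 0.22 (SE, limma, unadjusted p = 0.0133) and 1.54 ± 0.53 (unadjusted p = 0.0354), and the desaturase Fads2 by 0.75 ± 0.25 (unadjusted p = 0.0297). The other of these 4, named after its value was seen, was Lpin1, the phosphatase that makes diacylglycerol, at 0.65 ± 0.23 (limma, unadjusted p = 0.0373). The list was chosen with earlier results of these data known, and all 17 had an adjusted p of 1.00. Whether SREBP-1 or LXR itself acted on these genes was not tested.

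The 19 cholesterol synthesis genes of the SREBP-2 list had a median of 0.06, with 12 means higher and 7 lower and 0 at an unadjusted p under 0.05. The median was 0.0091 with arrays centred on the median, and leaving out a single treated array gave 0.0060 (a absent) or 0.13 (b absent). Mvd, which makes isopentenyl diphosphate from mevalonate pyrophosphate, was at 0.29 ± 0.23, Dhcr7, which makes cholesterol in the last step of one branch, at 0.38 ± 0.32, and Pmvk, which phosphorylates mevalonate phosphate, at 0.42 ± 0.36. Arrays did not overlap for 3, Mvd and, named after their values were seen, Lss at 0.19 ± 0.21 (higher) and Hsd17b7 at -0.08 ± 0.19 (lower). Over all genes the shares without overlap were 9.41% higher and 6.55% lower. On these arrays, which all had statin and mevalonic acid, this list lay near the median of all genes while the SREBP-1 list lay above it, and the difference between the lists was not tested.

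The partners that degrade or retain INSIGs and SREBPs had a median of -0.04 over 14 genes, 5 of them with a higher and 9 with a lower mean. Rnf145, a ubiquitin ligase of the endoplasmic reticulum that is known to act on SCAP and to be induced by LXR, was the only one with an unadjusted p under 0.05. It read 0.35 and 0.64 with DMSO and 1.13 and 1.44 with GW3965, without overlap, a difference of 0.79 ± 0.23 (SE, limma, unadjusted p = 0.0197, adjusted p = 1.00). Ubac2 was at 0.08 ± 0.20 and Faf2, an adaptor for extracting proteins from the membrane, at -0.11 ± 0.28. The 10 genes of the COPII coat, which buds the vesicles that carry SCAP and SREBP, had a median of -0.06 with 2 means higher and 8 lower. Its leading entries were Sec23a at -0.16 ± 0.24, Sec24c at -0.11 ± 0.19, the 1 gene of the coat without overlap, and Sar1b at -0.11 ± 0.20. Over all genes, 6.55% were lower without overlap.

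Other proteins cut by the site-1 protease, the site-2 protease or both had a median of 0.008 over 8 genes, 4 higher and 4 lower. Atf6b at 0.29 ± 0.19 (SE, limma) and Creb3l1 at 0.26 ± 0.20, membrane-bound transcription factors, were without overlap and higher, beside 9.41% over all genes. Gnptab, a lysosomal enzyme-tagging subunit, was at -0.13 ± 0.27. The LXR list of 9 genes had a median of 0.14. Higher without overlap were 5 genes, beside 9.41% over all genes. An unadjusted p under 0.05 was reached by 4, all higher, beside 0.658% over all genes. These 4 were Abca1, Abcg1, Lpcat3, which remodels phospholipids, at 1.05 ± 0.21 (unadjusted p = 0.00458), and Mylip, a ubiquitin ligase named after its value was seen, at 0.99 ± 0.29 (unadjusted p = 0.0207). The LXR genes themselves, Nr1h3 and Nr1h2, also named after their values were seen, were at 0.0007 ± 0.46 and -0.02 ± 0.23.

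**Figure D5:**
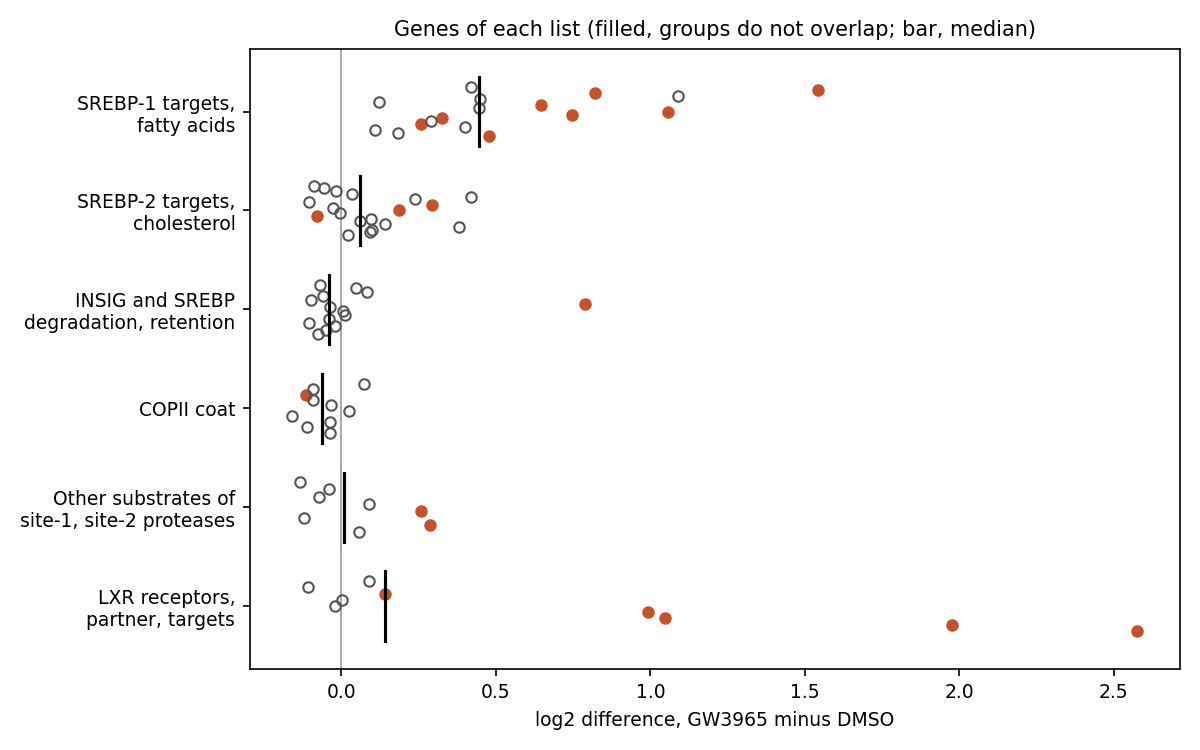
Log2 difference, GW3965 minus DMSO, of each measured gene of 6 lists; filled points are genes whose treated and DMSO arrays do not overlap, and the black bar is the list's median. The SREBP-1 list lies wholly to the right of 0 with a median of 0.45, while the SREBP-2, degradation, COPII and protease-substrate lists centre within 0.07 of 0.

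Genes whose 4 values followed Srebf1 were ranked by the Euclidean distance between log2 values after each probe's own mean was taken off, among 14766 other genes well above background on every array. The nearest were Gramd1b, which encodes a sterol transfer protein, at a distance of 0.076, Lpcat3 at 0.36, Fv1 at 0.43, Scd1 at 0.48 and Rnf145 at 0.49. Gramd1b was higher by 1.39 within replicate a and by 1.15 within replicate b, a difference of 1.27. Fv1, a dim probe, read -4.92 and -4.88 on the DMSO arrays and -4.13 and -3.99 on the treated ones. The other members lay further off: Insig1 was number 100 at a distance of 0.85, Srebf2 number 1091 at 1.10, Scap number 8043, Mbtps1 number 9355, Insig2 number 9805 and Mbtps2 number 10993. Of the reference LXR targets, Abcg1 was number 236 and Abca1, higher by 2.58, number 13263. The distance grows with a larger rise as well as with none, so a far rank does not mean an absent response. Likeness over 4 arrays is a description of these arrays.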

How the data were processed

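Total RNA was labelled with 1 dye and hybridised to 4 Agilent arrays of design 028005. The authors deposited, per the file headers, each spot's processed signal intensity (linear, background-corrected, unscaled between arrays) from Feature Extraction 10.7.3.1; the submitters' processing notes give 11.5.1.11. Their value table holds the same numbers (largest difference 0). Here, control spots and outlier spots (83 to 141 an array) were left out, spots of a probe were averaged, and log2 values were reduced by each array's 75th percentile. A probe was tested if, in 1 group or more, every array had it well above background: 35479 were, after 3 were dropped for outliers. RefSeq accessions gave symbols to 26762 probes, and the files' own names served for 28919. The group was the only term of a limma model (version 3.58.1, R 4.3.3, data.table of version 1.17.8), with two-sided tests and 2 residual and 2.85 prior degrees of freedom. Benjamini-Hochberg adjustment was over all tested probes. For lists, each gene took the values of its probe with the highest mean from this same fit, without a new adjustment over genes. The script was tested on simulated data. Sequences were read in Python 3.11.15 with pandas 2.3.3, and figures drawn with matplotlib 3.10.9.

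Members and lists were chosen with earlier results of these data known. The text names every member probe, the 3 genes of each list with the smallest p, Abca1 and Abcg1, and the 5 genes most like Srebf1, leaving out clones and predicted models. Others are said to be named after their values were seen. As alternatives, arrays were quantile normalized or centred on the median, normexp (offset 50) or the deposited value table was used, the filter was dropped or extended to all arrays, and limma was given an intensity trend, a robust prior or a replicate block. Further alternatives were 1 probe a gene, an adjusted p under 0.1, and each array left out.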

Additional observations from a re-analysis of the deposited data

How the results depend on the processing

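Of the 12 probes, Srebf1 was higher in all 14 alternatives (1.08 to 1.36, with 1.12 to 1.36 when 1 array was left out) and passed adjustment in 0, Insig1 was higher in all 14 (0.27 to 0.82), and A_55_P2000487 of Srebf2 and Scap also kept their direction. The deposited values, the filter changes, the intensity trend, the robust prior, the replicate block and 1 probe a gene leave a probe's difference as it is. Only quantile normalization, centring on the median, normexp and leaving out an array could move it. A_55_P2014347 of Mbtps2 changed sign with quantile normalization (-0.018) and with centring on the median (-0.023). The cause was not tested. Leaving out 1 array, which leaves a lone array assumed to vary like the other group, moved A_51_P377508 of Srebf2 between -0.057 and 0.51, A_51_P439452 of Insig2 between -0.23 and 0.35, A_55_P1957624 between -0.38 and 0.64, A_52_P406482 of Mbtps1 between -0.60 and 0.11, A_55_P2047325 between -0.27 and 0.0077, A_52_P530405 of Mbtps2 between -0.46 and 0.12, A_55_P2014347 between -0.17 and 0.22 and A_55_P2185910 between -0.46 and 0.31. The arrays whose absence turned a sign were GW3965 replicate a or DMSO replicate b for both Insig2 probes, A_52_P530405 and A_55_P2185910, DMSO replicate a or GW3965 replicate b for A_51_P377508 and A_55_P2014347, GW3965 replicate b for A_52_P406482 and DMSO replicate b for A_55_P2047325. Among the lists, the degradation median became 0.036 or 0.026 when GW3965 replicate a or b was absent and 0.032 when DMSO replicate b was, the COPII median 0.048 without GW3965 replicate a, the protease-substrate median -0.042 with centring on the median and 0.17 to 0.21 with any 1 array left out, and the LXR median 0.51 when GW3965 replicate b was absent and 0.42 when DMSO replicate a was. Member probes with an adjusted p under 0.05 numbered 0 in every alternative. All tested probes past it numbered 0 to 1 with 1 array left out, the 1 without DMSO replicate b. Probes with an unadjusted p under 0.05, 365 in the fit reported, numbered 77 with normexp, 1072 without a filter, 149 with the filter on all arrays, 196 with an intensity trend, 203 with 1 probe a gene and 353 to 710 with 1 array left out, the highest without DMSO replicate b. Member probes past it numbered 1 to 2 with 1 array left out, the 2 without GW3965 replicate b.

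The labels do not say that the replicate letters pair the arrays. Across all tested probes, b minus a in DMSO and in GW3965 had a correlation of 0.69, a hint from the data only. With the replicate block, 16 probes passed an adjusted p under 0.05 (limma), 0 of them members, 1957 had an unadjusted p under 0.05, and 3 of these were member probes (Srebf1, Insig1 and A_55_P2000487 of Srebf2). Srebf1 then had an adjusted p of 0.189. The excess of Srebf1 over Srebf2 then had an unadjusted p of 0.000518 (adjusted 0.296) and that of Insig1 over Insig2 one of 0.0315 (adjusted 0.866). The number of arrays, 2 a group, limits the precision of every value, and no scaling moved the median of all probes by over 0.1.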

Other observations

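Markers of other liver cell types were also measured on these arrays. For Kupffer cells and macrophages (7 of 7 markers measured), the median difference GW3965 minus DMSO was -0.19, and the median of replicate b minus a was -0.76 in DMSO and -0.85 in GW3965. Endothelial markers (6 of 6) had a median difference of 0.15, with b minus a at 0.35 in DMSO and 0.73 in GW3965. Cholangiocyte markers (4 of 5, Krt7 not among the tested genes) had a median difference of -0.23, with b minus a at 0.67 and 0.88. Their summed linear signal, in units of the array's 75th percentile, was 28.1 to 46.7 with DMSO and 31.4 to 53.6 with GW3965 for Kupffer cells, 32.2 to 39.1 and 34.0 to 42.3 for endothelial cells, and 62.5 to 76.0 and 57.2 to 63.8 for cholangiocytes, overlapping between treatments in each list. Of the Kupffer cell markers, 3 had a higher and 4 a lower mean with GW3965. Their sum was higher with GW3965 at both ends of its range, opposite to the median. In each of the 5 marker lists, 0 genes passed an adjusted p under 0.05 or an unadjusted p under 0.05 (limma).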
